A study of Mus musculus with 24 samples.

Results

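Adrenergic receptors are the cell-surface proteins through which brown fat reads noradrenaline from its sympathetic nerves. The 7 receptor genes described here (the beta receptors Adrb3 and Adrb1, the alpha-1 receptors Adra1a, Adra1b and Adra1d, and the alpha-2 receptors Adra2a and Adra2b) were taken by name from a table of 36144 genes. They do not cover every adrenoceptor gene, so the order of levels below holds among these 7. In brown fat of these mice Adrb3 was by far the most abundant of the 7 transcripts, Adrb1, Adra1a and Adra1d were present at lower levels, and Adra1b, Adra2a and Adra2b were at or near the detection floor. None of the 4 genes that could be tested changed past the threshold 30 minutes after deschloroclozapine (DCZ). Adrb3 was higher in Th-Cre than in WT mice under DCZ, and Adra1a and Adra1d were higher in Th-Cre than in WT mice under saline, and each of these calls was lost in some of the alternative fits given beside it.

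Polyadenylated RNA was sequenced from the interscapular depot of brown adipose tissue, a fat that burns fuel to make heat, of 24 mice aged 6 to 8 months. The 4 groups were Th-Cre mice given DCZ, Th-Cre mice given saline, WT mice given DCZ and WT mice given saline, each of 6 mice (3 females and 3 males) sampled 30 minutes after the dose. The WT mice were C57Bl/6J, and the Th-Cre mice were of the strain labelled B6.129X1- Tht1(cre)Te/Kieg, in which regulatory sequence of tyrosine hydroxylase drives Cre recombinase in catecholamine-producing cells. DCZ activates engineered muscarinic receptors (designer receptors), and which receptor these mice carried, if any, and how it was delivered are not stated in the labels. Each library came from 1 mouse.

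As background, all adrenoceptors couple to G proteins. Beta receptors act through Gs to raise cyclic AMP, which in brown adipocytes drives lipolysis and heat production, and the beta-3 receptor is best known from rodent fat. Alpha-1 receptors act through Gq and phospholipase C to raise calcium and are also abundant in vascular smooth muscle. Alpha-2 receptors act through Gi, which lowers cyclic AMP, and on sympathetic nerve endings they restrain the release of noradrenaline.

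Total estimated counts were 11.9 to 22.9 M per library, and mitochondrially encoded transcripts took 31.4 to 42.3% of them. Brown adipocyte markers fitted the labelled tissue: Ucp1, the uncoupling protein of brown fat, stood at 1752 to 6533 counts-per-million units (CPM), and 10 of 10 listed markers passed the filter on low counts. Markers of sympathetic neurons were close to 0, with 1 read of Th, 3 of Dbh and 2 of Npy over all 24 libraries, while Stmn2 averaged 3.06 CPM. In 6 libraries skeletal muscle transcripts were high, 2 of them Th-Cre DCZ (DN2075 and DN2091), 3 Th-Cre saline (DN2086, DN2087 and DN2094) and 1 WT saline (12). Receptor and pathway results that rest on called genes are given with and without these 6. Calls for cell type markers are given from the fit on all 24 libraries alone. The WT mice hold the lower library numbers and the Th-Cre mice the higher ones, so genotype and library number cannot be told apart. In bulk tissue, fewer cells of a type and less RNA per cell cannot be told apart either. The term for library number used below parts the lower from the upper numbers within each genotype. It therefore cannot separate genotype from library number, and genotype differences fitted with it refer to the lower numbers of each genotype.

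Levels were compared between genes as CPM per kilobase of exon sequence. Adrb3 led with 57.1 ± 19.8 CPM per kilobase (SD, n = 24), a level above that of 95.9% of the tested genes. Adrb1 followed at 8.02 ± 1.48 CPM per kilobase, Adra1a at 6.09 ± 1.15 and Adra1d at 4.53 ± 1.48. The remaining genes lay far below, with Adra2b at 0.0848, Adra2a at 0.0202 and Adra1b at 0.0172 CPM per kilobase. The Adrb3 level was above the Adrb1 level in 24 of 24 libraries, with a median ratio of 7.01 and no overlap between the ranges (26.2 to 104.7 and 5.24 to 10.4 CPM per kilobase). In the summed level of the 7 genes, Adrb3 made up 56.2 to 82.9% of a library (median 74.2%), Adrb1 6.4 to 22.1% (median 10.7%), Adra1a 4.83 to 12.6% (median 8.07%) and Adra1d 2.26 to 9.83% (median 6.3%).

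The middle of this order was less firm. The level of Adrb1 was above that of Adra1a in 21 of 24 libraries and that of Adra1a above that of Adra1d in 22 of 24, but in both pairs the ranges overlapped. Adra1a has an exon union of 8728 bases and a longest transcript of 4282 bases, so its level depends on the length used. Per kilobase of the longest transcript Adra1a averaged 12.4 CPM and Adrb1 9.19 CPM, and Adrb1 was then the higher in 3 of 24 libraries. The drop below Adra1d was wide on either length: Adra1d lay above Adra2b in 24 of 24 libraries, with a median ratio of 61.8.

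**Figure D1:**
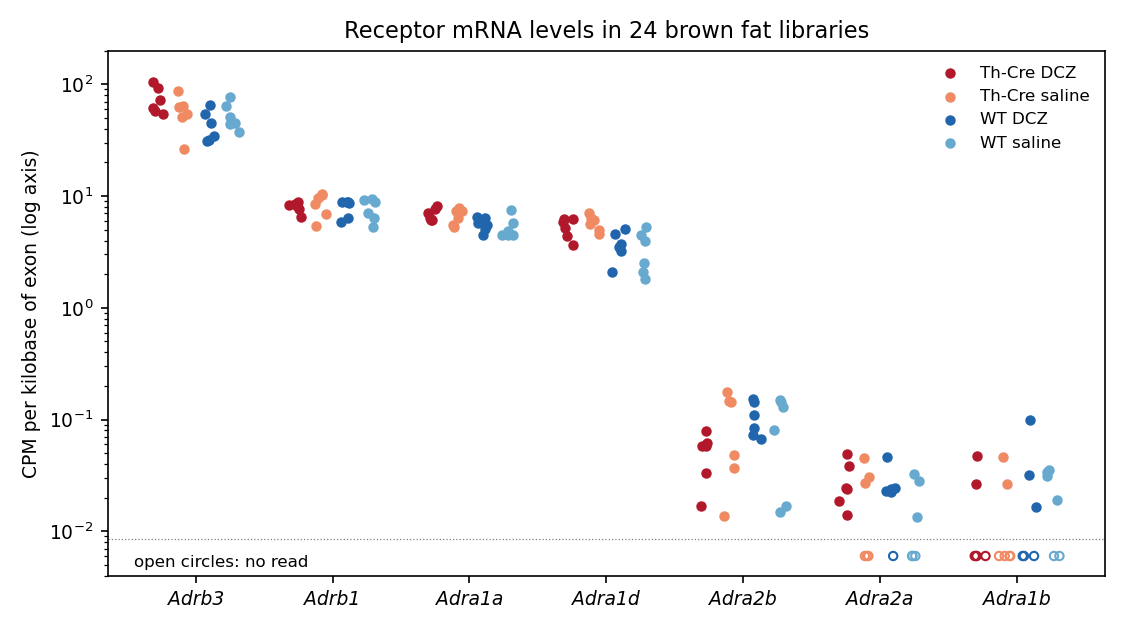
Level of each of the 7 receptor genes in CPM per kilobase of exon sequence (log axis), with 1 point per library for 24 libraries coloured by group and open circles for libraries with no read of the gene. Adrb3 lies between 26.2 and 104.7 in every library, Adrb1, Adra1a and Adra1d overlap below it, and Adra1b, Adra2a and Adra2b lie at or near the floor.

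Adrb3 encodes the beta-3 receptor, the chief beta receptor of rodent fat cells. The gene spans bases 27225776 to 27250616 on the minus strand of chromosome 8 (GRCm38), and 839 of its 3376 exon bases overlap Gm45470 on the other strand. Whether the counting used strand is not stated in the labels or notes, so reads from the shared bases of such a pair cannot be told apart. Adrb3 gave 183 to 353 CPM in Th-Cre DCZ mice (median 226), 88.4 to 296 in Th-Cre saline mice (median 196), 106 to 222 in WT DCZ mice (median 134) and 127 to 261 in WT saline mice (median 161). The highest library was Th-Cre DCZ DN2097 and the lowest was Th-Cre saline DN2089, and the ranges of any pair of groups overlapped.

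Adrb3 averaged 249 ± 68.8 CPM in Th-Cre DCZ mice and 194 ± 67.8 CPM in Th-Cre saline mice (SD, n = 6 each), a log2 difference of 0.41 ± 0.22 (SE) that did not pass the threshold of 0.05 (adjusted p = 0.893, edgeR's quasi-likelihood test, adjusted by Benjamini-Hochberg over 13129 genes, as for every adjusted p below unless another method is named). In WT mice the means ran the other way, at 148 ± 47.2 CPM under DCZ and 179 ± 50.4 CPM under saline (log2 difference -0.29 ± 0.22, adjusted p = 0.689). DCZ and saline are split unevenly over the library numbers of the WT mice (5 of 6 WT DCZ and 1 of 6 WT saline mice have the lower numbers). With a term for library number the WT difference was 0.04. For every receptor that term leaves little with which to judge the DCZ response in WT mice or the difference of the responses. Only 1 WT DCZ mouse has an upper number and 1 WT saline mouse a lower one. The log2 DCZ response was 0.70 ± 0.31 higher in Th-Cre than in WT mice, with an unadjusted p of 0.0349 and an adjusted p of 0.643. It was 0.32 with the term for library number, 1.29 in males alone and 0.04 in females alone (adjusted p = 1.0, 0.579 and 0.998). Differences of -0.03 to 0.85 in Th-Cre and -0.73 to 0.15 in WT mice lie within 2 SE of the reported values.

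Between genotypes the only call for a beta receptor was Adrb3 under DCZ. Its mean of 249 ± 68.8 CPM in Th-Cre mice stood against 148 ± 47.2 CPM in WT mice, a log2 difference of 0.82 ± 0.22 (1.76-fold, adjusted p = 0.0194). All 6 Th-Cre DCZ mice were above the WT DCZ mean and 3 of 6 were above every WT DCZ mouse. Of all tested genes, 13.8% were called in this comparison (886 higher and 922 lower, or 722 higher and 1216 lower with upper-quartile scaling), so 1 call among the 4 tested receptors is not set apart from this background. The adjusted p was 0.0903 without the 6 libraries with muscle transcripts (log2 difference 0.73), 0.0734 with a term for library number (0.77), 0.0547 without WT DCZ 5 (0.78) and 0.0574 without Th-Cre DCZ DN2097 (0.66). Under saline Adrb3 did not pass, at 194 ± 67.8 CPM in Th-Cre and 179 ± 50.4 CPM in WT mice (log2 difference 0.12 ± 0.22, adjusted p = 0.734).

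**Figure D2:**
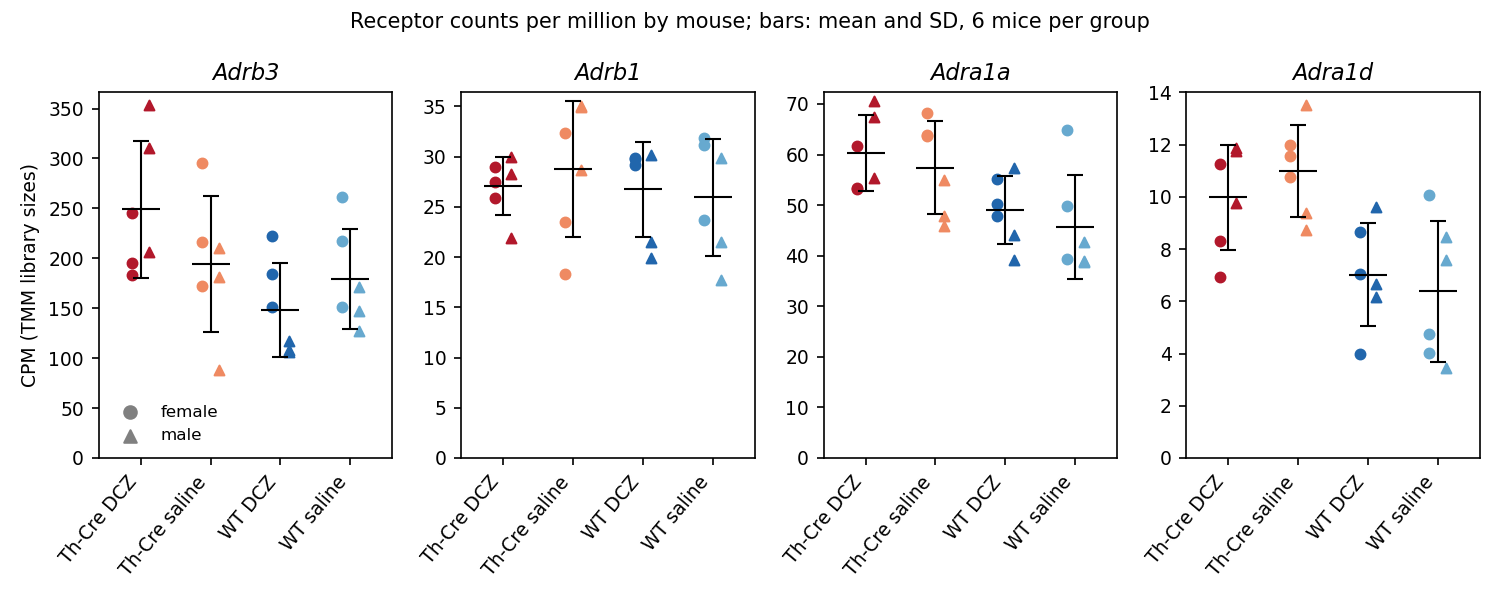
CPM of Adrb3, Adrb1, Adra1a and Adra1d by group, with 1 point per mouse, females and males marked, and the mean and SD of 6 mice. Th-Cre DCZ mice reach the highest Adrb3 values (up to 353 CPM), Adrb1 is nearly level across groups, and the Th-Cre groups have the higher means of Adra1a and Adra1d.

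No brown adipocyte marker was called higher beside Adrb3 under DCZ. The summed level of these markers, in which Fabp4 and Ucp1 are the largest members, was 11030 to 12920 CPM in Th-Cre DCZ mice and 14350 to 17750 CPM in WT DCZ mice. Of 10 tested markers 0 were called higher and 2 lower, Ucp1 by 0.96 and Cox8b, a subunit of cytochrome c oxidase, by 0.70 on the log2 scale (adjusted p = 0.000142 and 0.00235). The markers not called ran in both directions, and the median log2 difference of the list was -0.14. Skeletal muscle markers were at 1.99 to 529 CPM in Th-Cre DCZ mice and at 1.72 to 12.2 CPM in WT DCZ mice, with 3 of 12 tested markers higher in Th-Cre, and the part of muscle transcripts beyond the fit without those libraries was not tested.

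The order of the Adrb3 group means was not the same in females and males, each mean being of 3 mice. In males Adrb3 averaged 290.0 ± 75.7 CPM in Th-Cre DCZ, 160 ± 63.9 in Th-Cre saline, 110 ± 5.69 in WT DCZ and 149 ± 22.1 in WT saline mice (SD, n = 3 each). In females the means were 208 ± 32.9 CPM in Th-Cre DCZ, 228 ± 62.8 in Th-Cre saline, 186 ± 35.3 in WT DCZ and 210 ± 55.5 in WT saline mice. Female means were thus the higher in 3 of the 4 groups and the lower in Th-Cre DCZ, the ranges of the sexes overlapping in every group other than WT DCZ.

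Fitted on each sex alone, Adrb3 under DCZ was higher in Th-Cre than in WT males by 1.40 on the log2 scale (adjusted p = 0.0165), and in females the difference was 0.16 (adjusted p = 0.813). This genotype difference, female minus male, was -1.23 ± 0.37, with an unadjusted p of 0.00332 and an adjusted p of 0.623 in a contrast chosen after the values had been seen. The DCZ response in Th-Cre mice, female minus male, was -0.99 ± 0.37 for Adrb3 (adjusted p = 0.547) and -0.60 ± 0.21 for Adra1a (adjusted p = 0.520). Over all tested genes 0 passed in either contrast (edgeR), with 749 genes at an unadjusted p under 0.05 for the genotype difference and 903 for the DCZ response, so a difference between the sexes was not shown for either receptor.

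**Figure D3:**
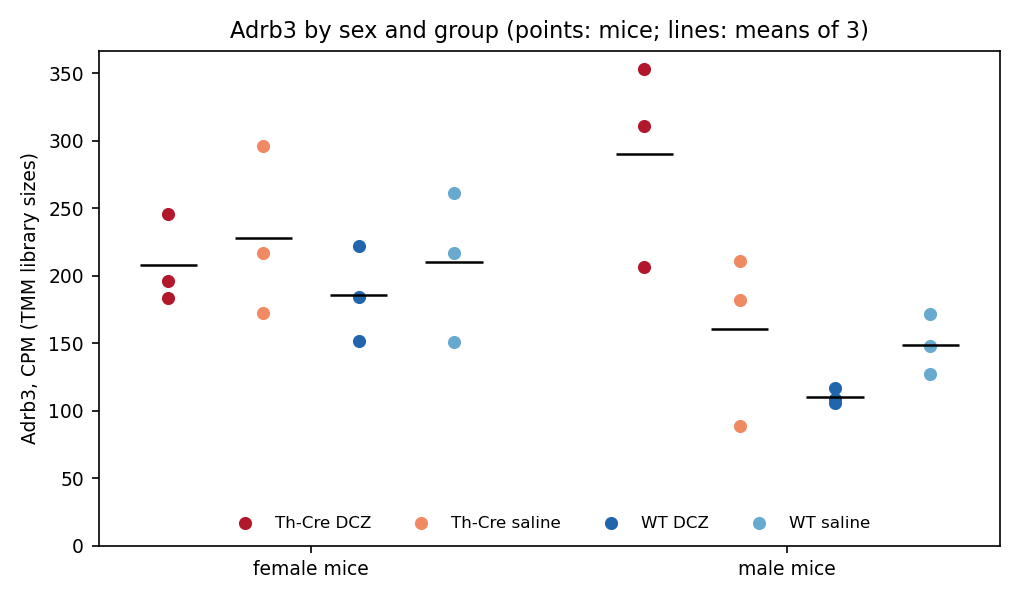
Adrb3 in CPM by sex within each group, with 1 point per mouse and a bar at the mean of 3 mice. The 3 Th-Cre DCZ males (mean 290.0) stand above the 3 WT DCZ males (mean 110), while the female groups overlap.

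Adrb1 encodes the beta-1 receptor, best known from heart muscle and also present on brown adipocytes and their precursors. It lies at bases 56722199 to 56733113 on the plus strand of chromosome 19. Adrb1 ranged over 21.9 to 30.0 CPM in Th-Cre DCZ mice (median 27.9), 18.3 to 35.0 in Th-Cre saline mice (median 30.5), 19.9 to 30.2 in WT DCZ mice (median 29.5) and 17.7 to 31.8 in WT saline mice (median 26.8). The 4 ranges lay almost on top of each other.

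No comparison called Adrb1. Its log2 difference between DCZ and saline was -0.10 ± 0.15 in Th-Cre mice (27.1 ± 2.87 and 28.8 ± 6.76 CPM, adjusted p = 0.999) and 0.04 ± 0.15 in WT mice (26.7 ± 4.71 and 26.0 ± 5.82 CPM, adjusted p = 0.959; -0.01 with a term for library number). The Th-Cre minus WT difference was 0.16 ± 0.16 under saline (adjusted p = 0.486) and 0.02 ± 0.15 under DCZ (adjusted p = 0.945). Within 2 SE these values leave room for log2 differences of -0.41 to 0.21 after DCZ in Th-Cre and -0.27 to 0.35 in WT mice.

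The ratio of Adrb3 to Adrb1 reads is taken within a library and needs no scaling between libraries. It had a median of 9.45 in Th-Cre DCZ (6.33 to 12.5), 7.02 in Th-Cre saline (2.53 to 12.6), 5.48 in WT DCZ (3.52 to 7.47) and 7.02 in WT saline mice (4.75 to 9.17). On the log2 scale the means were 3.17 ± 0.36, 2.71 ± 0.80, 2.43 ± 0.37 and 2.78 ± 0.35 in the same order of groups (SD, n = 6 each). The groups overlapped, and these ratios show unequal levels of the 2 transcripts, not which of them moved.

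Adra1a encodes the alpha-1A receptor and spans bases 66635251 to 66771168 on the plus strand of chromosome 14. Adra1a stood at 53.2 to 70.6 CPM in Th-Cre DCZ mice (median 58.6), 45.9 to 68.3 in Th-Cre saline mice (median 59.4), 39.2 to 57.3 in WT DCZ mice (median 49.1) and 38.8 to 64.9 in WT saline mice (median 41.1). The Th-Cre groups lay higher, though WT saline 2 was above 5 of the 6 Th-Cre saline mice.

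Adra1a did not pass between DCZ and saline, at 60.3 ± 7.53 and 57.4 ± 9.27 CPM in Th-Cre mice (log2 difference 0.09 ± 0.12, adjusted p = 0.999) and 49.0 ± 6.78 and 45.8 ± 10.3 CPM in WT mice (0.11 ± 0.12, adjusted p = 0.805; -0.08 with a term for library number). Under saline it was higher in Th-Cre than in WT mice by 0.33 ± 0.12 on the log2 scale (1.25-fold, adjusted p = 0.0481), with 6 of 6 Th-Cre mice above the WT mean and 1 above every WT mouse. Under DCZ the difference was about as large, 0.31 ± 0.12, and missed the threshold (adjusted p = 0.0845).

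The saline call for Adra1a was narrow. It was lost with upper-quartile scaling (log2 difference 0.30, adjusted p = 0.0593), without a term for sex (0.33, adjusted p = 0.0659), in males alone (0.30, adjusted p = 0.182), in females alone (0.34, adjusted p = 0.198), without the 6 libraries with muscle transcripts (0.18, adjusted p = 0.500) and with a term for library number (0.05, adjusted p = 0.971). Leaving out any 1 of 12 libraries also ended it, with adjusted p up to 0.117: Th-Cre DCZ DN2075, Th-Cre saline DN2086, DN2087, DN2094 and DN2201, WT DCZ 3 and 4, and WT saline 7, 8, 9, 11 and 12. The DCZ difference in turn passed without WT DCZ 1 (adjusted p = 0.0303), WT saline 2 (0.0496) or Th-Cre DCZ DN2207 (0.0494). The lower library numbers of the WT mice hold 5 WT DCZ mice and 1 WT saline mouse, number 2, so the term for library number leaves little with which to judge the saline comparison.

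Adra1d encodes the alpha-1D receptor, which is prominent in arterial smooth muscle. It lies at bases 131545850 to 131562283 on the minus strand of chromosome 2 and shares 147 exon bases with Gm14285 on the other strand. Adra1d ranged over 6.93 to 11.9 CPM in Th-Cre DCZ mice (median 10.5), 8.71 to 13.5 in Th-Cre saline mice (median 11.2), 3.96 to 9.62 in WT DCZ mice (median 6.86) and 3.45 to 10.1 in WT saline mice (median 6.17). As for Adra1a, the top WT saline mouse was number 2.

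Adra1d was higher in Th-Cre than in WT mice under saline, at 10.99 ± 1.76 and 6.39 ± 2.70 CPM, a log2 difference of 0.78 ± 0.22 (1.72-fold, adjusted p = 0.0142). All 6 Th-Cre saline mice were above the WT mean and 4 of 6 above every WT saline mouse. Unlike the Adra1a call, it held in 24 of 24 fits that left out 1 library (log2 difference 0.65 to 1.0, adjusted p 0.0014 to 0.0415). It was lost without the 6 libraries with muscle transcripts (0.48, adjusted p = 0.309), with a term for library number (0.10, adjusted p = 0.967), in males alone (0.69, adjusted p = 0.133) and in females alone (0.86, adjusted p = 0.167). As for Adra1a, the term for library number leaves little with which to judge the saline comparison.

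Under DCZ the genotype difference of Adra1d was 0.50 ± 0.22, at 9.98 ± 2.03 CPM in Th-Cre and 7.02 ± 1.98 CPM in WT mice (adjusted p = 0.127). Between DCZ and saline the log2 difference was -0.15 ± 0.22 in Th-Cre mice (adjusted p = 0.999) and 0.13 ± 0.23 in WT mice (adjusted p = 0.887), where the value was -0.46 with a term for library number (adjusted p = 1.0). The saline comparison as a whole called 24.9% of all tested genes (1643 higher and 1627 lower, or 1406 higher and 1967 lower with upper-quartile scaling), so the 2 called of 4 tested receptors, Adra1a and Adra1d, are read against a wide shift between these libraries.

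Markers of the vessel wall, where alpha-1 receptors are also made, were in most cases called lower in Th-Cre than in WT mice under saline. The 10 smooth muscle and pericyte markers summed to 480 to 506 CPM in Th-Cre saline and 495 to 725 CPM in WT saline mice. Of these, 0 were called higher and 7 lower, with a median log2 difference of -0.34. The smooth muscle myosin Myh11 fell by 0.67 (adjusted p = 0.00161) and Tagln by 0.75 on the log2 scale (adjusted p = 0.00167). Cnn1, Lmod1 and Notch3 were not called. The 8 endothelial markers summed to 692 to 805 CPM in Th-Cre saline and 724 to 1313 CPM in WT saline mice, and 8 of 8 were called lower. Under DCZ 3 of the 10 and 2 of the 8 were called lower and 0 higher. All these calls are from the fit on 24 libraries. Its saline comparison called 3270 of 13129 genes, against 109 of 13414 without the 6 muscle libraries. Brown adipocyte markers summed to 11480 to 13740 CPM in Th-Cre saline and 13960 to 16100 CPM in WT saline mice, and 0 of 10 were called higher and 3 lower. The largest members of that sum, Fabp4 and Ucp1 (means of 6314 and 4120 CPM over all libraries), were both called lower. The brown adipocyte markers not called ran in both directions, and the median log2 difference of the list was -0.04. Skeletal muscle markers summed to 0.907 to 1249 CPM in Th-Cre saline (median 40.7) and 0.893 to 244 CPM in WT saline mice (median 2.29). Of 12 tested, 0 were called, though their median log2 difference was 2.54 in the direction of Th-Cre. Apart from the fit without the muscle libraries, the part of these cell types in the receptor results was not tested.

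**Figure D4:**
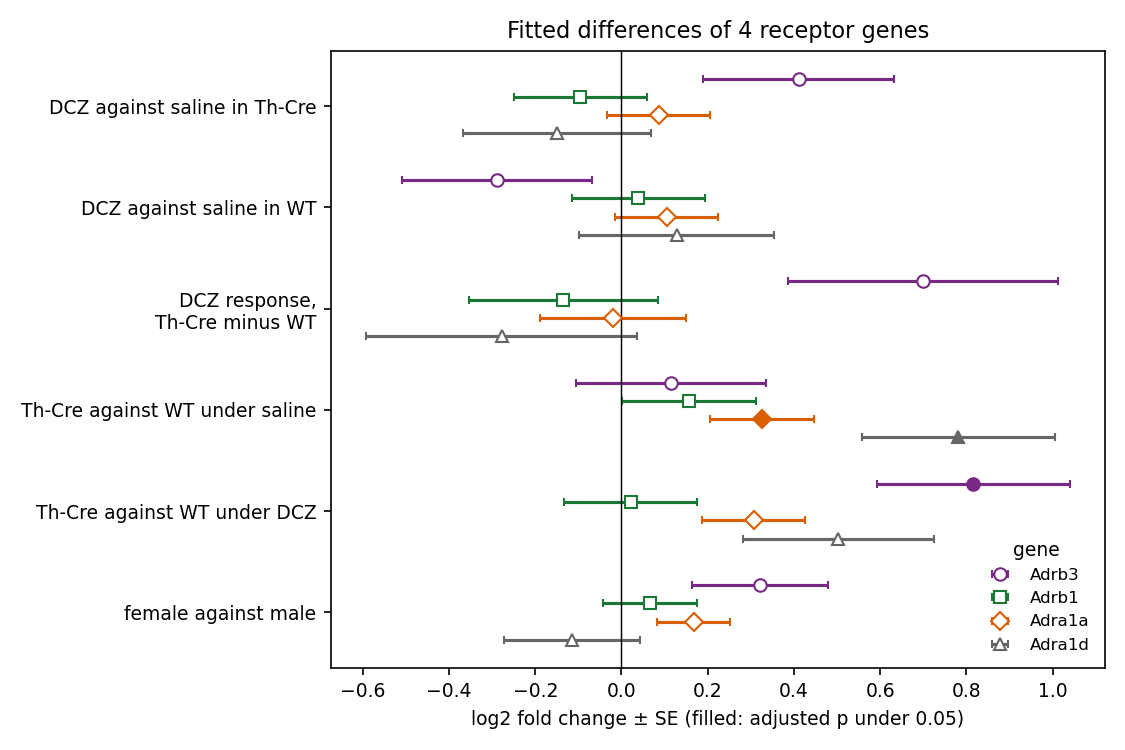
Log2 difference (point) with 1 SE to each side (line) for Adrb3, Adrb1, Adra1a and Adra1d in each comparison, from the edgeR fit on 24 libraries. Filled points passed the threshold: Adrb3 under DCZ (0.82) and Adra1a (0.33) and Adra1d (0.78) under saline, each Th-Cre against WT.

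Adra1b, Adra2a and Adra2b, which encode the alpha-1B, alpha-2A and alpha-2B receptors, had too few reads to pass the filter. Adra1b (chromosome 11, 43774606 to 43901210, minus strand) gave 24 reads over 24 libraries, of which 4 were in Th-Cre DCZ, 4 in Th-Cre saline, 9 in WT DCZ and 7 in WT saline mice, and it was at 0 in 13 libraries. Adra2a (chromosome 19, 54044151 to 54048982, plus strand) gave 39 reads, of which 13 were in Th-Cre DCZ, 8 in Th-Cre saline, 12 in WT DCZ and 6 in WT saline mice, and was at 0 in 7 libraries. Adra2b (chromosome 2, 127363208 to 127367221, plus strand) gave 134 reads, with 20 in Th-Cre DCZ, 34 in Th-Cre saline, 45 in WT DCZ and 35 in WT saline mice, and was at 0 in no library.

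A count of 0 allows a level of up to 0.134 to 0.267 CPM in these libraries (3 reads, counting error only). Over all libraries Adra2b averaged 0.34 CPM, above that range, and Adra2a and Adra1b averaged 0.098 and 0.058 CPM, below it. A library with no read therefore does not show absence below that level or in a rare cell type. In a fit of 22780 genes without the filter, none of the 18 values for the 3 genes over 6 comparisons passed, with adjusted p from 0.193 to 1.0. The lowest was that of Adra2a between the sexes, with 11 reads in females and 28 in males. Its log2 difference, female minus male, was -1.42 ± 0.57 (unadjusted p = 0.0185, edgeR).

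Neither DCZ comparison called any of the 4 tested receptors, and few genes of any kind were called. DCZ against saline called 0.0229% of tested genes in Th-Cre mice and 0.00762% in WT mice, and the difference between these responses 0.00762%. At an unadjusted p under 0.05 there were 745, 1137 and 980 genes, and of the receptors Adrb3 in the difference of responses was the only such value in these 3 comparisons. DESeq2 also called none of the receptors in these 3 comparisons, though it gave no adjusted p for Adrb1 and Adra1d in WT mice, and over the alternatives run the lowest adjusted p of a receptor in these 3 comparisons was 0.297.

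Between the sexes, 8.07% of tested genes and 0 of the 4 tested receptors were called by edgeR, and none of these 4 had an unadjusted p under 0.05. Adrb3 averaged 208 ± 44.1 CPM in females and 177 ± 82.9 CPM in males (SD, n = 12 each; log2 difference 0.32 ± 0.16, adjusted p = 0.225). Adra1a averaged 56.0 ± 8.59 CPM in females and 50.3 ± 10.9 CPM in males (0.17 ± 0.08, adjusted p = 0.240). Adrb1 differed by 0.07 (adjusted p = 0.771) and Adra1d by -0.12 (adjusted p = 0.720). Of the 12 tested skeletal muscle markers, 7 were higher in females, and their part in these values was not tested.

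The genes that make and clear the transmitter and carry the receptor signal were described from a list of 43, of which 33 could be tested. After DCZ none of the 33 was called in Th-Cre mice (lowest adjusted p 0.646, edgeR), in WT mice (0.527) or in the difference of the responses (0.635). Their median log2 difference was -0.0034 in Th-Cre and 0.0027 in WT mice, against 0.00047 and -0.00075 over all tested genes. Genes of noradrenaline synthesis and neuronal uptake were nearly silent in the tissue, with 1 read of Th, 37 of Ddc, 3 of Dbh, 22 of Slc18a2 and 32 of Slc6a2. The alpha-2C receptor gene Adra2c gave 126 reads and was not tested.

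Under saline 7 of the 33 were higher and 4 lower in Th-Cre than in WT mice (median 0.05, against -0.01 over all tested genes, of which 24.9% were called). The catecholamine-degrading enzyme gene Maob was higher by 0.48 ± 0.11 (adjusted p = 0.0045), and so were Gnaq, the Gq alpha subunit used by alpha-1 receptors, by 0.30 ± 0.07 (0.00408) and the gamma subunit gene Gng12 by 0.29 ± 0.08 (0.00904). Among adenylyl cyclases Adcy9 rose by 0.92 ± 0.19, at 23.9 ± 1.16 CPM in Th-Cre and 12.6 ± 4.81 CPM in WT mice (0.00265), and Adcy4 fell by 0.74 ± 0.15 (0.00247). Arrb1, the arrestin that uncouples receptors, rose by 0.36 ± 0.11 (0.0217), while the receptor kinase gene Grk3 fell by 0.23 ± 0.08 (0.0278). The G protein regulators Rgs4 and Rgs5 fell by 0.76 ± 0.14 (0.0013) and 0.28 ± 0.07 (0.00669). Rgs5 is also on the smooth muscle and pericyte list. Without the 6 libraries with muscle transcripts 1 of the 33 was called, Arrb1, and 109 of all genes, and with a term for library number 0 of the 33 and 0 of all genes. As said for Adra1a, that term leaves little with which to judge the saline comparison.

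Under DCZ 5 of the 33 were higher and 4 lower in Th-Cre than in WT mice (median 0.03, against -0.002 over all tested genes, of which 13.8% were called). Gnas, which encodes the Gs alpha subunit that beta receptors use and whose locus also gives antisense transcripts, fell by 0.65 ± 0.14, at 2076 ± 649 CPM in Th-Cre and 3215 ± 231 CPM in WT mice (adjusted p = 0.00533). Rgs2, a regulator that limits Gq signalling, rose by 1.09 ± 0.23, at 310.0 ± 67.6 CPM in Th-Cre and 152 ± 66.0 CPM in WT mice (0.00502). Gnai1, a Gi alpha subunit, rose by 0.50 ± 0.12 (0.0126). Adcy9 (0.98 ± 0.19, adjusted p = 0.00295) and Arrb1 (0.42 ± 0.11, adjusted p = 0.0164) were again higher, and Adcy4 (-0.49 ± 0.15, adjusted p = 0.0337), Grk3 (-0.24 ± 0.08, adjusted p = 0.0365) and Rgs4 (-0.54 ± 0.14, adjusted p = 0.0129) again lower. Adcy9, Arrb1, Gnai1 and Rgs2 were also called higher without the libraries with muscle transcripts (4 higher and 1 lower of 33, the lower one Rgs4) and with the term for library number (4 higher and 1 lower, the lower one Gnas). Of all genes tested, the fit without the muscle libraries called 535 of 13414 and the fit with the term 523 of 13129.

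Within groups, the receptors varied among mice largely apart from each other. After group and sex means were removed from log2 CPM, Pearson's r over 24 libraries was 0.62 between Adra1a and Adra1d and between -0.05 and 0.19 for the other 5 pairs, as a description of libraries that share depth and dissection. Of the 10919 other genes compared, those nearest to Adrb3 were Hsf1 (r = 0.81), Fabp5 (0.80) and Txnl1 (0.78), and those nearest to Adrb1 were Wdr5b (0.81), Cog7 (0.81) and Fadd (0.77). Nearest to Adra1a were Zkscan1 (0.87), Hectd3 (0.86) and Klhl9 (0.85), and nearest to Adra1d were Zc3h7b (0.85), Itih5 (0.81) and Eif4e3 (0.80). In the 18 libraries without high muscle transcripts these r values lay between 0.72 and 0.89. The genes had been picked for their r over 24 libraries that include these 18, so this is no separate check.

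**Figure D5:**
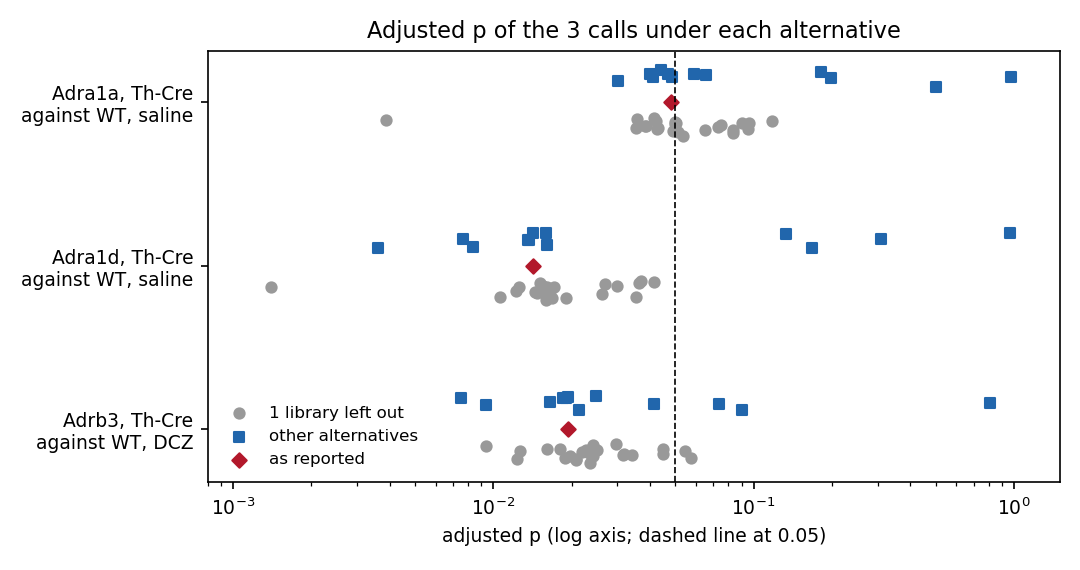
Adjusted p (log axis) of the 3 called receptor results as reported and under each alternative fit, with the threshold of 0.05 as a line. Adra1d under saline stays left of the line when any 1 library is left out, Adra1a under saline falls on both sides of it, and Adrb3 under DCZ crosses it without WT DCZ 5 or Th-Cre DCZ DN2097.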

How the data were processed

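The submitters' processing notes name kallisto 0.44.0 and the build GRCm38.p6; the transcript set and strand setting are not stated there. The estimated counts per gene symbol are whole numbers in the table the authors deposited, and were tested in that form. Genes with few reads were removed with edgeR's filterByExpr by group, which left 13129 of 36144 genes holding 99.92% of reads; 4 of the 7 receptor genes passed. CPM values use TMM library sizes. The fit was edgeR 4.0.16 (R 4.3.3), quasi-likelihood, with 4 group means and a term for sex over 24 libraries, and Benjamini-Hochberg adjustment; an adjusted p under 0.05 is a call. The SE is the log2 difference divided by the square root of F. The common biological coefficient of variation was 15.65%. Gene lengths and 1-based coordinates came from GENCODE on GRCm38. DESeq2 1.42.0 and limma 3.58.1 (voom) were alternatives. The scripts were tested on simulated data. The members and gene lists were chosen with earlier results of these data known. Named genes were all 7 receptors, the 3 genes most like each, called pathway genes after DCZ, and up to 2 pathway genes per role between genotypes; 1 that the rule names is not reported here. Separately normalized tables per genotype were not used. Each library is a separate mouse; floors cover counting error only.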

Additional observations from a re-analysis of the deposited data

Results flagged for a closer look

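Of 36 sets of 6 libraries checked for a library far from the others, 1 was flagged. By chance the rule flags about 1 in 20 sets of normally distributed values. That rate does not hold for low counts with ties at 0, as in the flagged set. The flagged set was Adra1b in WT DCZ mice, where the library of mouse 10 had 0.335 CPM (6 of the group's 9 reads). The gap to its nearest neighbour was 0.677 of the group's range. No test was made of this gene in the filtered fit.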

How the results depend on the processing

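Of the 4 tested receptors, 2 were called between genotypes under saline. The count was 1 with upper-quartile factors, 1 with no term for sex, and 0 in males alone, in females alone, without the 6 libraries with muscle transcripts and with a term for library number; leaving out 1 library gave 1 to 2. Under DCZ 1 was called, and 0 in females alone, without the muscle libraries and with the term for library number; leaving out 1 library gave 0 to 2. For the DCZ comparisons, their difference and the sexes the count was 0 under every alternative run. Of 750 alternative values for the 21 results that were not called, 3 were called and 34 had the other sign. Among all genes, the 3 calls for DCZ in Th-Cre were 20 with no filter, 37 with DESeq2, 7 with limma-voom, 13 in Th-Cre libraries alone, 1 in males alone, 7 without the muscle libraries and 3 to 18 with 1 library left out. The 1 call for DCZ in WT was 2 with DESeq2 and 0 with no filter, limma-voom, no term for sex, WT libraries alone, either sex alone, without the muscle libraries and with the term for library number, and 0 to 39 with 1 library left out (39 without WT saline 2). The 1 call for the difference of responses was 8 with no filter, 16 with DESeq2, 2 with no term for sex, 4 without the muscle libraries, 0 in either sex alone and with the term for library number, and 1 to 7 with 1 library left out. The 3270 genotype calls under saline were 658 in males, 6 in females, 109 without the muscle libraries and 0 with the term for library number; the 1808 under DCZ were 735, 30, 535 and 523, and 850 to 2443 with 1 library left out. The fits on either sex and without the muscle libraries hold fewer libraries. The fit with the term for library number holds all 24, but only 1 WT saline mouse has one of the lower numbers and only 1 WT DCZ mouse one of the upper. That fit therefore leaves little with which to judge the saline comparison, the DCZ response in WT mice or the difference of the responses. For it and the other alternatives the cause was not tested. With the longest transcript's length 5 of the 7 receptors kept their place in the order of levels. No paired analysis was possible because no mouse number occurs in 2 groups. Depth limits Adra1b, Adra2a and Adra2b, for which changes were not detectable.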
